A study of Mus musculus with 23 samples.

Results

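The loss of Bcl6 was set against the wild type in 2 kinds of conventional dendritic cell of mouse spleen, and its effect in type 1 cells (cDC1) was compared with its effect in type 2 cells (cDC2). The members are the 15 cDC arrays of 23 in the series: 3 of wild-type (WT) cDC1, 4 of cDC1 from Bcl6 conditional knockout (cKO) mice, 3 of WT cDC2 and 5 of cKO cDC2. The other 8 arrays held plasmacytoid dendritic cells (pDC). Each array was hybridised with RNA of 1 sorted splenic population, and the labels name no agent given to the mice. The sources used here do not give the Cre driver, the sorting gates or the age of the mice. Nothing there says that a group's arrays came from different mice, and the p-values then rest on a spread between samples that may be technical.

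BCL6 is a transcriptional repressor that binds DNA through zinc fingers and recruits corepressors through its BTB domain. In follicular helper T cells and in B cells of the germinal centre it holds down genes of other fates. The cDC1 depend on Irf8 and Batf3 and present antigen mainly to CD8 T cells. The cDC2 depend in part on Irf4 and Notch2 signalling and present mainly to CD4 T cells.

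Levels are log2 intensities, and a genotype effect is the mean of the cKO arrays minus the mean of the WT arrays in a cell type. The difference of effects is the cDC1 effect minus the cDC2 effect, tested with limma on all 15 arrays, and a gene was called at a Benjamini-Hochberg adjusted p below 0.05 over 11666 genes. A gene was classed as shared where both effects were called in the same direction, as specific where the difference of effects was called with an effect called in just 1 cell type, and as opposite where both effects were called in opposite directions. A difference of effects that missed the threshold does not show equal effects: the median standard error (SE) of the difference was 0.37 and the smallest called difference was 1.30 in size.

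The labelled cell types were checked against their markers. Xcr1 read 9.70 ± 0.23 in WT cDC1 (SD, n = 3) and 4.52 ± 0.23 in WT cDC2 (n = 3), and Clec9a, Tlr3, Cadm1, Cd8a and Irf8 were higher in WT cDC1 by 3.24 to 4.32. Sirpa read 6.26 ± 0.28 in WT cDC1 and 10.69 ± 0.57 in WT cDC2, and Cd209a and Clec4a4 were lower in WT cDC1 by 4.92 and 4.42. The type 2 marker Esam was low in all 4 groups, with means of 5.11 to 5.83. Whether the single Bcl6 probe set covers the deleted exons is not known here, so it is no check of the knockout. It gave an effect of 0.96 ± 0.33 (SE) in cDC1 (limma adjusted p = 0.46) and 0.69 ± 0.31 in cDC2 (adjusted p = 0.587), and directions rest on the labels. Array medians ran from 29.3 to 40.6 intensity units and parted the arrays into sets A (5 arrays), B (4) and C (6), each with all 4 groups. No label names these sets. The 4 groups accounted for 49.5% of the variance between arrays, and the groups with the set for 86.3%. With the set as a term of the fit, the Bcl6 probe set was called higher in cKO in both cell types. Its effect was then 1.01 in cDC1 (limma adjusted p = 0.000834) and 0.63 in cDC2 (adjusted p = 0.0119). WT array 1 of each cell type stood apart in Xist, at 10.90 in cDC1 and 11.28 in cDC2, against 4.59 or less on the other 13 arrays. The Y-linked Eif2s3y read 3.52 and 3.09 there, against 6.03 or more on the others, and Kdm5d 4.68 and 4.77 against 5.89 or more. By these genes the 2 arrays read as female and the other 13, every cKO array among them, as male. Sex was thus not balanced between the genotypes, and its part in the effects was not tested.

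The difference of effects was called for 33 of 11666 genes (0.283%). In 23 genes the cDC1 effect was the higher (0.197%) and in 10 the lower (0.0857%), while 461 genes had an unadjusted p below the same threshold. Within cDC1 102 genes rose in cKO (0.874%) and 5 fell (0.0429%), together 107 (0.917%). Within cDC2 150 rose (1.29%) and 56 fell (0.48%), together 206 (1.77%). Among the 33 genes, 12 were specific to cDC1 (11 rose and 1 fell), 16 were specific to cDC2 (9 rose and 7 fell), 3 rose in both cell types by different sizes and 2 changed in opposite directions. Across all genes the effects in cDC1 and cDC2 had a Pearson r of 0.39, a description across genes of the same 15 arrays, with no test.

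A call on 1 side alone did not make a gene specific. A further 53 genes were called in cDC1 and 148 in cDC2 with no called difference of effects, and 48 and 109 of these had the same sign in the other cell type. Within sets A, B and C the 33 differences had median sizes of 2.27, 2.26 and 2.20, all on the same side as over the 15 arrays. These sets are subsets of the arrays that chose the genes, so this is a description and no support. The number of calls moved with the arrays and the model: it was 14 without both WT arrays 1, 3 in sets A and B alone and 239 with the set as a term of the fit. Classes moved with that term too. It gave a called cDC2 effect for 6 of the 12 genes specific to cDC1, of the same sign in 4 (B4galt6, Cd209a, Cybb and Pltp) and of the opposite sign in 2 (Cd22 and Ctnnd2), and a called cDC1 effect for 0 of the 16 specific to cDC2. Of 52 named genes with a called effect and no called difference, 20 had a called difference with it. "Specific" and "not called" below therefore hold for the fit without the set.

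**Figure D1:**
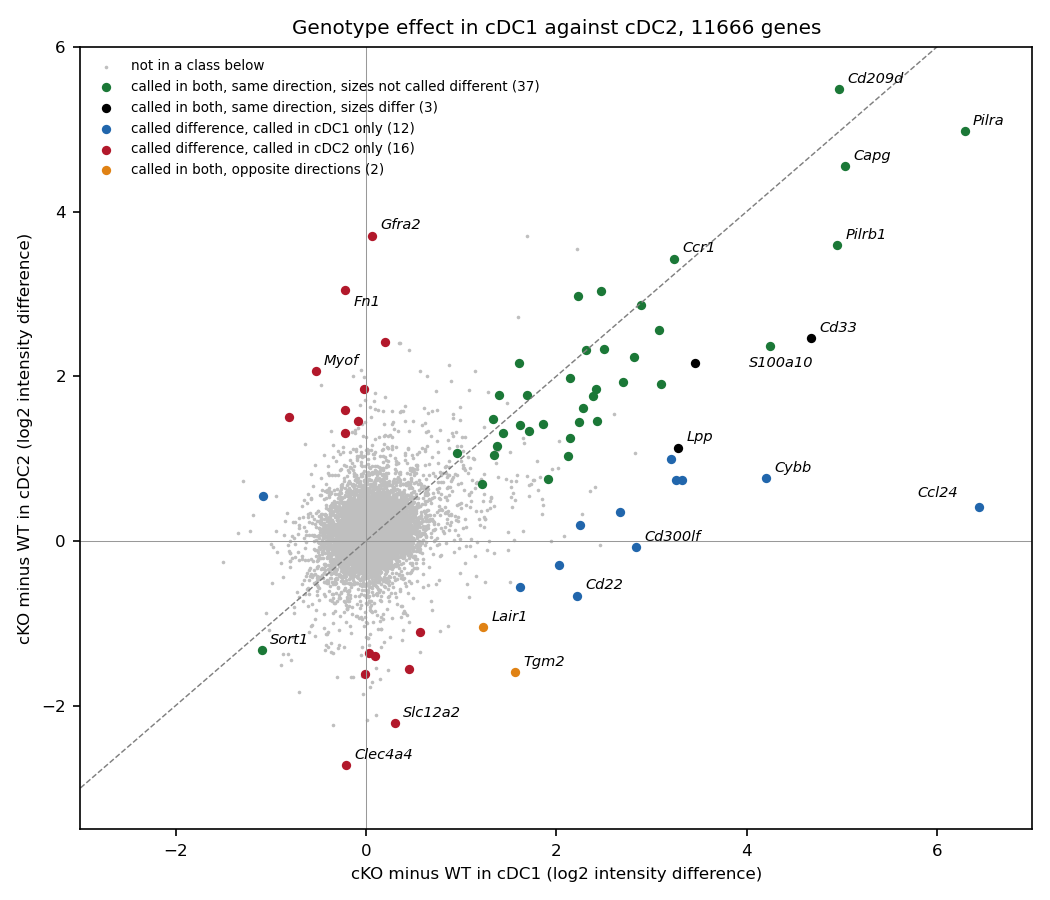
Genotype effect in cDC1 (x axis) against cDC2 (y axis), each as cKO minus WT in log2 intensity, for 11666 genes; the dashed line marks equal effects. Green points (37 genes) were called in both cell types with no called difference, black (3) with a called difference, blue (12) and red (16) were specific to cDC1 and cDC2, and orange (2) changed in opposite directions. Ccl24 lies at 6.45 in cDC1 and 0.41 in cDC2, Gfra2 at 0.07 and 3.71.

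Promoter windows were read from RefSeq (GRCm38.p6), 250 bases before to 50 after a gene's start. They are printed for 4 genes of different classes. Lpp rose in both cell types and more in cDC1, and Strip2 was specific to cDC2. Cybb was specific to cDC1, and Lair1 changed in opposite directions. Capitals mark a match to TTCNNNGAA, the palindromic letters shared by STAT sites and many BCL6 sites, searched on both strands. The Lpp window is chr16:24721605-24721904 on the plus strand, that of Strip2 chr6:29916763-29917062 on the plus strand, that of Cybb chrX:9469275-9469574 on the minus strand and that of Lair1 chr7:4063155-4063454 on the minus strand.
Lpp: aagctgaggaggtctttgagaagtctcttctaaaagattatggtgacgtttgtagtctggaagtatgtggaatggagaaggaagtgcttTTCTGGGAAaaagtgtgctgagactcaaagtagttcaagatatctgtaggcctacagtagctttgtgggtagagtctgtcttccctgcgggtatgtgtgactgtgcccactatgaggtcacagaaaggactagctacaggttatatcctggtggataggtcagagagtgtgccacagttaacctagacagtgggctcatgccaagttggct
Strip2: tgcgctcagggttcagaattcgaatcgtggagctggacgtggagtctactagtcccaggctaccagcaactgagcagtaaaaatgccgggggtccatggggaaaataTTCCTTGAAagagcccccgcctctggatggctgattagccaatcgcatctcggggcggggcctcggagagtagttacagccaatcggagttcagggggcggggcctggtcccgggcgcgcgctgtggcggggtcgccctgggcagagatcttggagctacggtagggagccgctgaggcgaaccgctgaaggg
Cybb: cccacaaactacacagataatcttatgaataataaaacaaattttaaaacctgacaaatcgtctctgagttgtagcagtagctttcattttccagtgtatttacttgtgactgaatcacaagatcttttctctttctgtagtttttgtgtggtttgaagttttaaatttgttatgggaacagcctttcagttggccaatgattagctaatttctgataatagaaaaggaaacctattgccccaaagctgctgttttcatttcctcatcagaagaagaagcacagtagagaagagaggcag
Lair1: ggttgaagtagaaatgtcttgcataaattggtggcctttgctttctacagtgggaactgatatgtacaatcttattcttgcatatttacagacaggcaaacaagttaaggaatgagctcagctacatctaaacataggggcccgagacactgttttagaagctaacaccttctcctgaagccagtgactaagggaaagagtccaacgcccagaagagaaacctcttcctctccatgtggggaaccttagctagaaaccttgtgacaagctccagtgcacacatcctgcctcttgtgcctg
The Lpp match reads TTCTGGGAA, and the Strip2 match reads TTCCTTGAA, which also fits the narrower letters TTCCTNGAA. Neither motif was found in the Cybb or Lair1 window, nor in those of Cd300lf and Capg, which were read and are not printed. Lpp and Strip2 were the only genes with a called difference that had a match. The 4 printed windows therefore do not show how common a match was. Lpp has 2 windows, and the one with the match is printed. TTCNNNGAA stood in 2 of 29 windows of genes with a called difference (6.9%), of which 24 of 33 had a window. Among shared genes, 33 of 40 had a window, and TTCNNNGAA stood in 6 of 40 windows (15%), from 5 genes. The called genes come from the genes of the fit, where it stood in 6.66% of 11809 windows. Over all 32851 windows the share was 8.3%. TTCCTNGAA, whose matches all lie within those of TTCNNNGAA, stood in 1.59% of all windows and in 1.21% of those of the fitted genes. A match is a description of letters, not a binding site.

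The genes specific to cDC1 were led by Ccl24, which encodes a chemokine that attracts eosinophils. In cDC1 it read 4.53, 4.83 and 5.07 on the WT arrays and 10.89, 11.06, 11.52 and 11.56 on the cKO arrays. In cDC2 the values were 4.53, 4.88 and 4.95 on the WT arrays and 5.15, 5.12, 5.46, 5.29 and 4.97 on the cKO arrays. The cKO arrays lay above the WT arrays in both cell types, far apart in cDC1 and by a narrow margin in cDC2; over all genes 4.3% in cDC1 and 4.81% in cDC2 had no overlap between genotypes. The cDC1 effect was 6.45 ± 0.21 (SE, 87.3-fold), the cDC2 effect 0.41 ± 0.20 (adjusted p = 0.703) and the difference of effects 6.04 ± 0.30 (limma adjusted p = 5.8e-09). The WT level in cDC1 was under the array medians, so the size of this fold is uncertain. In pDC the effect was 0.09 ± 0.23.

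Cybb encodes the subunit of the NADPH oxidase that carries electrons to oxygen in phagocytes. In cDC1 it read 6.17, 4.42 and 4.99 on the WT arrays and 9.77, 9.24, 9.45 and 9.13 on the cKO arrays. The cDC2 arrays read 9.66, 9.43 and 9.56 on the WT arrays and 10.53, 10.91, 9.95, 10.02 and 10.14 on the cKO arrays. The gene was thus low in WT cDC1 alone, and the cKO cDC1 arrays lay near the level of WT cDC2. The effect was 4.20 ± 0.33 in cDC1 (18.4-fold) and 0.76 ± 0.32 in cDC2 (adjusted p = 0.487), a difference of 3.45 ± 0.46 (limma adjusted p = 0.00157).

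Inhibitory receptors followed. Cd300lf, an inhibitory receptor of the CD300 family, read 5.94, 5.97 and 5.57 in WT cDC1 and 9.08, 8.36, 8.80 and 8.43 in cKO cDC1. In cDC2 the levels were 9.03, 8.65 and 8.69 in WT and 8.84, 9.17, 8.60, 8.54 and 8.42 in cKO, so that the genotypes overlapped there. Its effects were 2.84 ± 0.23 and −0.07 ± 0.22, a difference of 2.92 ± 0.31 (limma adjusted p = 0.000195). Cd22, a sialic acid-binding lectin best known as an inhibitory receptor of B cells, read 6.17, 5.91 and 6.60 in WT cDC1 and 8.65, 8.24, 8.48 and 8.43 in cKO cDC1. In cDC2 Cd22 read 8.76, 8.28 and 8.68 in WT and 7.69, 8.68, 7.69, 7.60 and 7.88 in cKO, where cKO array 2 alone reached the WT range. The effects on Cd22 were 2.22 ± 0.25 and −0.67 ± 0.24 (adjusted p = 0.326), a difference of 2.89 ± 0.35 (limma adjusted p = 0.000586). Summed markers of B cells, the usual source of Cd22, ran from 348 to 650 intensity units in WT cDC1 and from 277 to 438 in cKO cDC1, over 10 markers. In cDC2 the sums were 317 to 450 in WT and 240 to 390 in cKO. None of the 5 tested was called in either cell type. With the set as a term, the B cell marker Ms4a1 was called lower in cKO in both (limma adjusted p = 0.0068 in cDC1 and 0.000101 in cDC2), and Pax5 in neither. The part of B cells in the Cd22 values was not tested.

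The other 7 genes that rose and were specific to cDC1 had cDC1 effects of 1.62 to 3.32. Pltp, a phospholipid transfer protein, rose by 3.32 ± 0.25 in cDC1 and had a cDC2 effect of 0.74 ± 0.24 (adjusted p = 0.212). B4galt6, which makes lactosylceramide, rose by 3.26 ± 0.21 against 0.74 ± 0.20 (adjusted p = 0.0911), and the lectin Cd209a by 3.20 ± 0.27 against 1.0 ± 0.26 (adjusted p = 0.0629). These genes were therefore called in cDC1, with a called difference, over a cDC2 effect of the same sign. Ctnnd2, a catenin of cell junctions, rose by 1.62 ± 0.25 in cDC1 with a cDC2 effect of −0.55 ± 0.24, and Arap2, a regulator of Arf proteins, by 2.03 ± 0.33 with −0.29 ± 0.32. The unnamed gene 1700006J14Rik rose by 2.67 ± 0.31 with 0.35 ± 0.30. Gbp2b, an interferon-induced guanylate-binding protein named after its values were seen, rose by 2.25 ± 0.24 with 0.19 ± 0.23. It read 6.67, 6.40, 6.80 and 6.54 in cKO cDC1 and 4.86 or less on every other cDC array.

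Fcgr2b, the inhibitory receptor for IgG, was the single gene that fell and was specific to cDC1. It read 8.36, 8.54 and 8.84 in WT cDC1 and 7.40, 7.32, 7.78 and 7.48 in cKO cDC1, all cKO arrays below all WT arrays. In cDC2 it read 7.84, 8.74 and 8.31 in WT and 8.55, 8.78, 8.59, 9.12 and 9.19 in cKO, which overlapped. It fell by 1.08 in cDC1 (SE 0.24, adjusted p = 0.0345), the cDC2 effect was 0.55 ± 0.23 and the difference −1.64 ± 0.33 (limma adjusted p = 0.0451). Without 1 array the adjusted p of its cDC1 effect reached 0.187. Its neighbour Fcgr3, an activating IgG receptor named after its values were seen, had effects of 0.12 and 1.59 (adjusted p = 1 and 0.0164) and no called difference (−1.47 ± 0.48, adjusted p = 0.517).

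The genes that rose and were specific to cDC2 were led by Gfra2, a co-receptor for the growth factor neurturin. In cDC1 it read 4.90, 5.08 and 5.04 in WT and 5.02, 5.06, 4.97 and 5.24 in cKO. In cDC2 the values were 5.49, 5.94 and 5.50 in WT and 9.13, 9.63, 8.91, 9.41 and 9.68 in cKO. Every array outside cKO cDC2 read 5.94 or less, far below the cKO cDC2 arrays. The effects were 0.07 ± 0.21 in cDC1 and 3.71 ± 0.20 in cDC2 (13.1-fold), a difference of −3.64 ± 0.28 (limma adjusted p = 3.75e-06). In pDC the effect on Gfra2 was −0.24 ± 0.22.

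Fn1 encodes fibronectin, a matrix protein that macrophages and monocytes also make. It read 5.52, 5.99 and 4.50 in WT cDC1 and 5.62, 5.17, 4.86 and 4.80 in cKO cDC1, which overlapped. The cDC2 arrays read 6.21, 6.91 and 5.92 in WT and 10.21, 9.68, 8.90, 9.31 and 8.88 in cKO, which did not. The effects were −0.22 ± 0.37 and 3.05 ± 0.36 (8.29-fold), a difference of −3.27 ± 0.52 (limma adjusted p = 0.00778). Red pulp macrophage markers, summed over 12 genes, ran from 831 to 1823 in WT cDC2 and from 1015 to 1804 in cKO cDC2. Of these 12, 2 rose there, Cd163 and Mertk, and over all genes 1.29% were called higher in cDC2. The call of Cd163 was lost without WT cDC2 array 1 or 3 or cKO cDC2 array 5 (adjusted p up to 0.105). Mertk, a receptor for the uptake of dead cells, rose by 2.40 ± 0.32 in cDC2, with a difference of effects of −2.04 ± 0.46 (adjusted p = 0.0834, and 0.00458 with the set term). Monocyte and neutrophil markers summed to 564 to 2916 in WT cDC2 and 1072 to 3247 in cKO cDC2. Of the 10 tested, 2 were called higher and 1 lower, beside 1.29% and 0.48% over all genes. The part of these cells in the result was not tested.

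Myof, a membrane repair protein, moved apart in sign without a call in cDC1. It read 6.65, 6.53 and 6.66 in WT cDC1 and 6.33, 5.74, 6.14 and 6.12 in cKO cDC1. In cDC2 the levels were 5.19, 5.50 and 5.57 in WT and 7.44, 7.86, 6.97, 7.49 and 7.66 in cKO. The genotypes did not overlap in either cell type, with cKO below WT in cDC1 and above it in cDC2. The effects were −0.53 ± 0.21 (adjusted p = 0.849) and 2.06 ± 0.20, a difference of −2.59 ± 0.30 (limma adjusted p = 0.000331). Dapk1, a death-associated kinase, had the same pattern, with −0.80 ± 0.28 in cDC1 (adjusted p = 0.525), a rise of 1.51 ± 0.27 in cDC2 and a difference of −2.31 ± 0.39. Its adjusted p of 0.0119 became 0.0586 without WT cDC1 array 1.

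Of the other 5 genes that rose and were specific to cDC2, 3 had a level in cKO cDC2 closer to that of cDC1. Gpr171, a G protein-coupled receptor, read 10.71 to 11.10 over the 7 cDC1 arrays of both genotypes, 7.61 to 8.70 in WT cDC2 and 9.41 to 10.35 in cKO cDC2, with effects of −0.02 ± 0.25 and 1.85 ± 0.24. Tiam1, which activates Rac, rose in cDC2 by 2.42 ± 0.30 with a cDC1 effect of 0.20 ± 0.31, and Strip2, a partner of striatins, by 1.31 ± 0.20 with −0.22 ± 0.21. In these 3 genes the level was lower in WT cDC2 than in WT cDC1, by 1.71 to 2.76. Blnk, an adaptor of B-cell receptor signalling, rose in cDC2 by 1.58 ± 0.23 from a level below its arrays' medians, with −0.22 ± 0.24 in cDC1. Il2ra, the alpha chain of the interleukin-2 receptor, read 4.51 to 5.22 over the cDC1 arrays, 5.82, 6.14 and 6.38 in WT cDC2 and 7.45, 7.70, 7.41, 7.42 and 7.87 in cKO cDC2. The effects on Il2ra were −0.08 ± 0.22 and 1.45 ± 0.21, with a difference of −1.54 ± 0.31 (limma adjusted p = 0.0496), the highest adjusted p of the 33.

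Some lymphocyte markers were called in cDC2 beside these receptor genes, and no T or NK cell marker was called in cDC1. Of 8 tested T cell markers, Cd3d, Cd3g and Thy1 rose in cKO cDC2, and of 7 tested NK cell markers Ncr1 rose. Over all genes 1.29% were called higher in cDC2. The call of Cd3d was lost without any of 12 arrays (adjusted p up to 0.213), that of Thy1 without any of 10 (up to 0.156) and that of Ncr1 without WT cDC2 array 1 or 3 (up to 0.115), while that of Cd3g was not lost without any 1 array. None had a called difference of effects. Summed over 9 markers, T cell genes ran from 600 to 865 in WT cDC2 and from 773 to 1195 in cKO cDC2. NK cell genes, over 10 markers, ran from 878 to 1612 and from 1151 to 2042. In cDC1 the T cell sums were 382 to 729 in WT and 504 to 839 in cKO. The NK cell sums there were 442 to 674 in WT and 727 to 890 in cKO, every cKO array above every WT array. The part of T and NK cells in the rises of Il2ra, Gpr171 and other genes that lymphocytes also express was not tested.

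The genes that fell and were specific to cDC2 were led by Clec4a4, an inhibitory lectin of Notch2-dependent cDC2. It read 2.97, 3.01 and 3.41 in WT cDC1 and 2.75, 2.98, 2.99 and 2.98 in cKO cDC1, below the array medians throughout. In cDC2 it read 7.27, 7.35 and 8.04 in WT and 3.85, 4.57, 4.77, 5.37 and 5.61 in cKO, with no overlap. The gene fell by 2.72 in cDC2 (SE 0.31), the cDC1 effect was −0.20 ± 0.33 and the difference 2.52 ± 0.45 (limma adjusted p = 0.0223). At these levels in WT cDC1 a fall of that size could not have been measured there.

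Slc12a2, a sodium, potassium and chloride carrier, read 6.04, 5.86 and 5.73 in WT cDC1 and 5.62, 6.57, 6.62 and 5.92 in cKO cDC1. In cDC2 the values were 7.74, 6.97 and 7.96 in WT and 5.14, 5.47, 4.69, 5.78 and 5.61 in cKO, below every WT array. It fell by 2.22 in cDC2 (SE 0.29) against 0.30 ± 0.31 in cDC1, a difference of 2.52 ± 0.42 (limma adjusted p = 0.0119). Dtx1, a regulator and target of Notch signalling, fell by 1.62 in cDC2 (SE 0.18) against −0.01 ± 0.19, a difference of 1.61 ± 0.27 (limma adjusted p = 0.0109). Its cKO cDC2 arrays at 6.61, 6.35, 6.62, 6.59 and 6.19 lay near the cDC1 arrays, which read 5.66 to 6.13. The other 4 genes that fell and were specific to cDC2, named after their values were seen, were Ceacam16 (by 1.56), Npl (by 1.40), Arhgap6 (by 1.36) and Rin2 (by 1.10). In cDC1 the levels of Ceacam16, Npl and Arhgap6 were also under the array medians (WT means of 4.65, 4.52 and 4.78), which limits what fall could be measured there. Npl encodes a lyase of sialic acid and Rin2 an activator of Rab5. Of 13 tested Notch2-dependent cDC2 genes, 2 rose and 2 fell in cDC2, beside 1.29% and 0.48% over all genes. Notch1 itself was called higher in cDC2, at 5.6 to 6.2 in WT and 6.7 to 7.5 in cKO, with no called difference of effects.

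**Figure D2:**
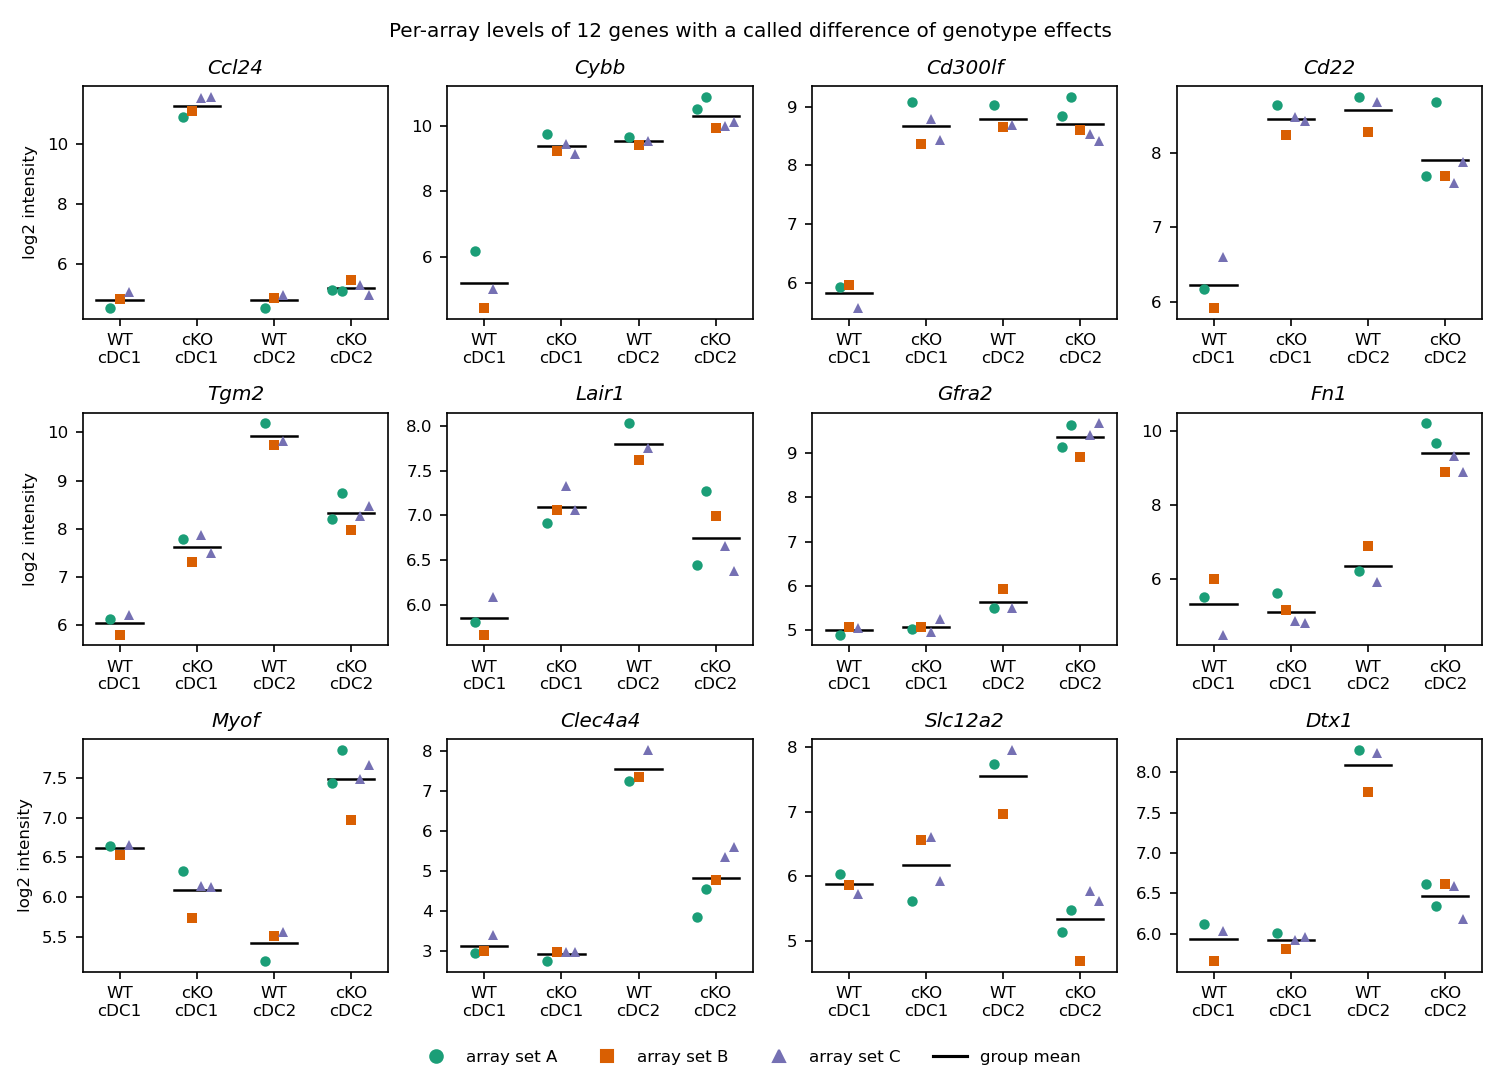
Log2 intensity of 12 genes with a called difference of effects on each of the 15 arrays, by group; colour and shape give the array set and the line the group mean. Ccl24, Cybb, Cd300lf and Cd22 were low in WT cDC1 and high in cKO cDC1, Tgm2 and Lair1 rose in cDC1 and fell in cDC2, Gfra2, Fn1 and Myof rose in cKO cDC2, and Clec4a4, Slc12a2 and Dtx1 fell there.

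The 2 genes called in opposite directions were Tgm2 and Lair1. Tgm2, a transglutaminase that cross-links proteins, read 6.13, 5.81 and 6.21 in WT cDC1 and 7.80, 7.30, 7.88 and 7.51 in cKO cDC1. The cDC2 arrays read 10.19, 9.74 and 9.82 in WT and 8.20, 8.73, 7.97, 8.27 and 8.47 in cKO. The genotypes did not overlap in either cell type, in opposite directions. Tgm2 rose by 1.57 ± 0.22 in cDC1 (adjusted p = 0.000571) and fell by 1.59 in cDC2 (SE 0.21, adjusted p = 0.000349), a difference of 3.16 ± 0.30 (limma adjusted p = 4.29e-05). The gap between the cell types went from −3.87 in WT to −0.71 in cKO.

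Lair1, an inhibitory receptor for collagen, read 5.82, 5.67 and 6.09 in WT cDC1 and 6.92, 7.05, 7.33 and 7.06 in cKO cDC1. In cDC2 the levels were 8.03, 7.62 and 7.75 in WT and 6.44, 7.27, 6.99, 6.66 and 6.38 in cKO. Again no array crossed between the genotypes, and the cKO levels of the cell types lay closer together than the WT levels. Lair1 rose by 1.23 ± 0.22 in cDC1 and fell by 1.05 in cDC2 (SE 0.21), a difference of 2.28 ± 0.31 (limma adjusted p = 0.00163). The call within cDC1 was lost without WT cDC1 array 1 or 2 (adjusted p up to 0.0747) and that within cDC2 without WT cDC2 array 1 or 3 (up to 0.105), while the call of the difference was not lost without any 1 array. Together with genes called on 1 side, 19 of the 33 had effects of opposite sign.

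The gap between cDC1 and cDC2 was narrower in cKO than in WT for 23 of the 33 genes and wider for 10. The narrower genes included both opposite genes, the 3 that rose in both cell types by different sizes, 8 of 12 specific to cDC1 and 10 of 16 specific to cDC2. For Cd300lf the gap went from −2.96 to −0.05 and for Pltp from −2.29 to 0.30, while for Ccl24 it went from 0.02 to 6.06 and for Gfra2 from −0.64 to −4.28. These genes were chosen by the same difference, so the counts are a description.

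**Figure D3:**
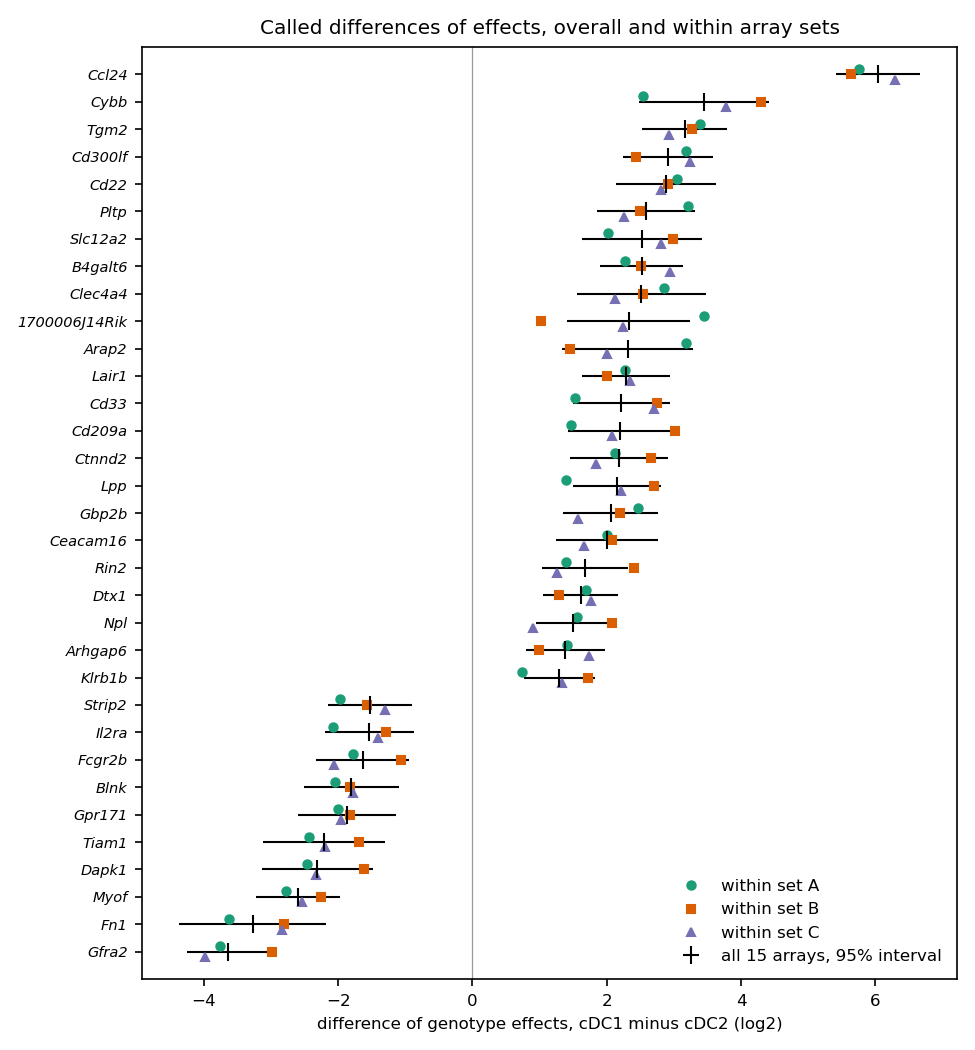
Difference of genotype effects (cDC1 minus cDC2, log2) for the 33 called genes: the vertical tick and bar give the estimate and 95% interval from all 15 arrays, and coloured points the value within array sets A, B and C. The genes were chosen on these same arrays, so the sets show the spread and not support; the values for 1700006J14Rik ran from 1.02 in set B to 3.44 in set A.

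Shared effects numbered 40 (0.343% of 11666 genes), 39 that rose and Sort1 that fell. They made up 37.4% of the calls in cDC1 and 19.4% of those in cDC2. For 37 of them no difference of effects was called, and 3 (Cd33, Klrb1b and Lpp) rose more in cDC1. The median signed effect of the 40 was 2.30 in cDC1 and 1.81 in cDC2, and 30 had the higher signed effect in cDC1. Sort1 is among these 30, although its fall was the larger in cDC2. No cKO array of any of the 40 overlapped the WT arrays in either cell type, which follows in part from how they were chosen.

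The shared rises named first are those of paired receptors. For 19 of the 40 shared genes the WT level in cDC1 was under the array medians, and for 7 that in cDC2, which leaves the sizes of their rises and of the differences between them uncertain. These include Pilra, Pilrb1, Capg, Cd209d, Ccr1, Il1rl2, Ak8, Nrp2, Zeb2 and Cd33. Pilra, an inhibitory receptor, read 3.76, 4.83 and 3.69 in WT cDC1 and 10.39, 10.18, 10.55 and 10.43 in cKO cDC1. In cDC2 it read 4.84, 6.02 and 5.67 in WT and 10.17, 10.60, 10.38, 10.56 and 10.73 in cKO. The cKO groups lay closer together than the WT groups, and the effects were 6.29 ± 0.29 and 4.98 ± 0.28, with a difference of 1.31 ± 0.40 (95% interval 0.46 to 2.17; limma adjusted p = 0.41). Its activating partner Pilrb1 rose by 4.95 ± 0.33 and 3.59 ± 0.31, with a difference of 1.36 ± 0.45 (adjusted p = 0.543). Pilrb2, named after its values were seen, rose by 2.31 in both. The 3 genes are neighbours and alike in sequence, so their probe sets may share signal.

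Capg, an actin-capping protein, read 4.71, 4.71 and 5.29 in WT cDC1 and 9.72, 9.44, 10.52 and 10.09 in cKO cDC1. In cDC2 the values were 6.14, 5.97 and 6.17 in WT and 10.17, 10.47, 10.23, 11.12 and 11.23 in cKO. The effects were 5.04 ± 0.30 and 4.55 ± 0.28, and the difference of 0.49 ± 0.41 had a 95% interval of −0.38 to 1.36, so unequal effects up to that size are compatible with these arrays. The lectin Cd209d read 3.95, 4.43 and 4.83 in WT cDC1 and 9.13, 9.09, 9.96 and 9.32 in cKO cDC1. The cDC2 arrays read 4.81, 6.17 and 5.68 in WT and 10.70, 10.71, 10.47, 11.74 and 11.59 in cKO. Its effects of 4.97 ± 0.37 and 5.49 ± 0.35 gave a difference of −0.52 ± 0.51 (95% interval −1.59 to 0.55). Its neighbour and relative Cd209a, by contrast, was among the genes specific to cDC1, and the difference of effects for each gene is its own test; whether they differ from each other was not tested.

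The chemokine receptor Ccr1 rose by 3.24 ± 0.31 in cDC1 and 3.43 ± 0.30 in cDC2, a difference of −0.19 (95% interval −1.11 to 0.73). Il1rl2, the interleukin-36 receptor, rose by 2.47 ± 0.44 and 3.03 ± 0.42, and its cDC1 adjusted p of 0.00634 became 0.0542 without WT cDC1 array 1. Upb1, an enzyme of pyrimidine breakdown, rose by 3.08 ± 0.17 and 2.56 ± 0.17, and the adenylate kinase Ak8 by 2.89 ± 0.34 and 2.86 ± 0.32. S100a10, the partner of annexin A2, read 7.79, 8.16 and 9.10 in WT cDC1, 12.09 to 12.99 in cKO cDC1, 9.08, 10.10 and 10.56 in WT cDC2 and 11.55 to 12.93 in cKO cDC2. Its effects of 4.24 ± 0.40 and 2.37 ± 0.38 differed by 1.87 ± 0.56 without passing the test (adjusted p = 0.368, and 0.000377 with the set term).

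Cd33, a sialic acid-binding inhibitory receptor of myeloid cells, had unequal rises. It read 4.77, 4.61 and 4.04 in WT cDC1 and 9.41, 9.04, 9.20 and 8.96 in cKO cDC1. In cDC2 the levels were 6.86, 7.52 and 7.33 in WT and 9.79, 10.17, 9.21, 9.69 and 9.64 in cKO. Its effects of 4.68 ± 0.24 and 2.46 ± 0.23 differed by 2.22 ± 0.34 (limma adjusted p = 0.00595), from a WT cDC1 level below the array medians. Klrb1b, a lectin receptor known from NK cells, rose by 3.46 ± 0.18 and 2.17 ± 0.17, a difference of 1.30 ± 0.25 (limma adjusted p = 0.0369).

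Lpp, an adaptor of focal adhesions, is the next protein-coding gene to Bcl6 on chromosome 16. It read 6.14, 5.65 and 5.64 in WT cDC1 and 8.90, 9.09, 9.19 and 9.19 in cKO cDC1. In cDC2 it read 7.58, 8.33 and 7.60 in WT and 8.71, 9.20, 9.07, 8.69 and 9.20 in cKO. The cKO groups lay 0.12 apart in mean and the WT groups 2.03, with WT cDC2 the higher. The effects were 3.28 ± 0.22 and 1.13 ± 0.21, and the difference was 2.15 ± 0.31 (limma adjusted p = 0.00334). The call within cDC2 was lost without WT cDC2 array 1 or 3 (adjusted p up to 0.0729). Its other 2 probe sets gave differences of 1.21 and 1.91, in the same direction.

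Sort1, a sorting receptor, was the shared gene that fell. It read 6.98, 6.98 and 6.82 in WT cDC1 and 5.37, 5.82, 5.95 and 6.20 in cKO cDC1. In cDC2 the values were 7.19, 6.88 and 7.22 in WT and 5.95, 5.96, 5.44, 6.07 and 5.39 in cKO. It fell by 1.09 in cDC1 (SE 0.23) and by 1.33 in cDC2 (SE 0.22), and the difference of 0.24 had a 95% interval of −0.43 to 0.90. The cDC1 call was lost when any 1 of 6 arrays was left out (adjusted p up to 0.133).

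**Figure D4:**
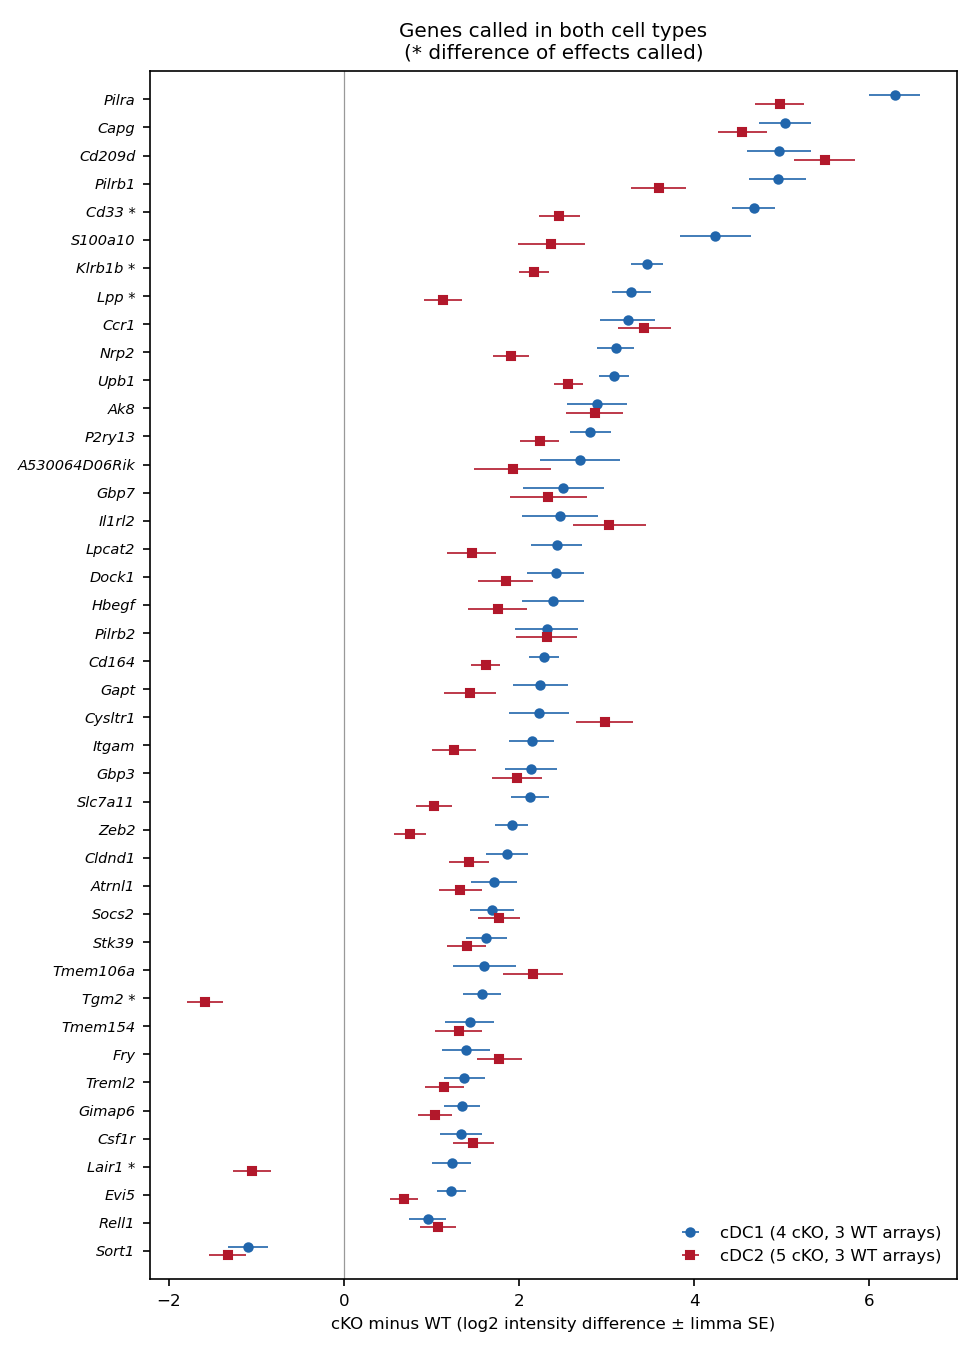
Genotype effects (cKO minus WT, log2 intensity, with limma SE as bars) of the 42 genes called in both cell types, blue circles for cDC1 and red squares for cDC2; an asterisk marks a called difference of effects. The 39 shared rises lie right of 0 in both, Sort1 left of 0 in both, and Tgm2 and Lair1 on opposite sides.

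Counts in the gene lists are read against the shares called over all genes, 0.874% higher and 0.0429% lower in cDC1, 1.29% higher and 0.48% lower in cDC2 and 0.283% for the difference. Of 24 tested Siglecs and paired receptors, 9 rose in cDC1 and none fell, 5 rose and 2 fell in cDC2, and 4 had a called difference, all higher in cDC1 (Cd22, Cd300lf, Cd33 and Lair1). The median effect of this list was 0.43 in cDC1 and 0.21 in cDC2, against 0.06 and 0.07 over all genes. Of 28 C-type lectins and Fc receptors, 6 rose and 1 fell in cDC1, 6 rose and 2 fell in cDC2, and 4 had a called difference. It was above 0 for 3 (Cd209a and Klrb1b, with the larger rise in cDC1, and Clec4a4, which fell in cDC2). For 1 it was below 0 (Fcgr2b). Mgl2 and Clec10a, neighbouring galactose lectins that are alike in sequence, rose in cDC2 by 2.0 and 2.41 with cDC1 effects of −0.14 and 0.35, and their differences of −2.14 and −2.06 were not called (adjusted p = 0.274 and 0.352).

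Of 30 tested receptors for cytokines and growth factors, 9 rose and 1 fell in cDC2, 2 rose in cDC1 and 2 had a called difference (Gfra2 and Il2ra). Il7r rose by 2.0 ± 0.22 in cDC2 with a cDC1 effect of 0.65 ± 0.23, and Il2rb by 2.08 ± 0.31 with −0.05 ± 0.33. Their differences of −1.36 ± 0.32 and −2.12 ± 0.45 missed the threshold (adjusted p = 0.112 and 0.0682, and 0.00811 and 0.00216 with the set term). Of 29 cytokines and chemokines, 4 rose in cDC2 and Ccl24 alone in cDC1. Il12b, a subunit of interleukin-12, read 9.44 to 10.59 over the cDC1 arrays, 7.34, 6.84 and 6.14 in WT cDC2 and 8.95, 9.24, 8.51, 8.61 and 8.50 in cKO cDC2. Its difference of −2.01 ± 0.43 was not called (adjusted p = 0.0734, and 0.00121 with the set term).

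Among 20 chemokine and migration receptors, 4 rose in cDC1, 6 in cDC2 and no difference was called. Ccr2 and Cxcr6 rose in cDC2 by 1.94 and 1.70 with cDC1 effects of 0.90 and 0.09, and Nrp2 rose in both by 3.10 in cDC1 and 1.90 in cDC2. Of 25 interferon-stimulated genes, 5 rose in cDC1 and 1 in cDC2, with no called difference. Their median effect was 1.03 in cDC1 and 0.61 in cDC2, above 0 for 24 and 25 of 25 genes. Over all 11666 genes the effect was above 0 for 7298 in cDC1 and 7532 in cDC2. The cDC1 calls of Irf7 (1.11), Xaf1 (1.10) and Zbp1 (1.39) were each lost without 1 of several arrays, with adjusted p up to 0.237, 0.153 and 0.156.

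Of 22 tested cDC1 identity genes, none was called in cDC1 and 2 rose in cDC2, Cd36 by 1.56 and Rab7b by 0.93. The Rab7b call (adjusted p = 0.0306) was lost in 11 of 27 alternatives, among them quantile normalization and the omission of any of 5 arrays (up to 0.178). Of 23 cDC2 identity genes, 5 rose in cDC1 (Sirpa, Itgam, Cd209a, Clec4a2 and Zeb2), and 4 rose and 4 fell in cDC2. A difference above 0 was called for 3, Cd209a, which rose in cDC1, and Clec4a4 and Dtx1, which fell in cDC2 and did not rise in cDC1. Sirpa, the inhibitory receptor that marks cDC2, had effects of 2.27 in cDC1 and 0.32 in cDC2, and the difference of 1.95 ± 0.44 was not called (adjusted p = 0.0834). Zeb2, a transcription factor of cDC2, read 4.66, 4.51 and 4.53 in WT cDC1, 6.30, 6.31, 6.77 and 6.56 in cKO cDC1, 7.92, 8.14 and 8.23 in WT cDC2 and 8.70, 9.13, 8.53, 8.87 and 8.99 in cKO cDC2. Its effects were 1.92 ± 0.19 and 0.75 ± 0.18, with a difference of 1.17 ± 0.26 (adjusted p = 0.0836, and 0.00514 with the set term). Its cDC2 call (adjusted p = 0.0443), which puts it among the shared genes, was lost in 18 of 27 alternatives, among them the omission of any of 12 arrays (up to 0.211). Tlr7, which senses single-stranded RNA, fell by 2.11 in cDC2 with a cDC1 effect of 0.11 from a level below the array medians, and its difference of 2.22 ± 0.49 was not called (adjusted p = 0.0825, and 0.0301 with the set term).

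The genes that BCL6 is described to repress in B and T cells numbered 30 tested. In cDC1 3 rose, in cDC2 5 rose and 1 fell, and Il2ra alone had a called difference. Socs2, an inhibitor of cytokine signalling, rose by 1.69 ± 0.25 in cDC1 and 1.77 ± 0.24 in cDC2. Its other probe set, at lower levels, gave smaller effects of 0.82 and 0.63. Gpr183 and Ccnd2 rose in cDC1 by 1.15 and 1.31 with cDC2 effects of 0.36 and 0.40, and Gata3 rose in cDC2 by 1.37 with a cDC1 effect of −0.08; none of these differences was called. Of 21 genes of the phagocyte oxidase, S100, annexin and actin-capping families, 3 rose in each cell type, Capg and S100a10 in both, and Cybb alone had a called difference. In 14 MHC class II, 17 MHC class I and 28 cell cycle genes no difference was called, with median differences of −0.03, −0.06 and −0.07. For the cell cycle genes the array sets differed in sign, with medians of 0.67 in set A, −0.41 in B and −0.49 in C.

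Several of the genes lie side by side in the genome. The run Gbp5, Gbp7, Gbp3 and Gbp2b, named after their values were seen, held genes called in cDC2 (Gbp5), in both cell types (Gbp7 and Gbp3) and specifically in cDC1 (Gbp2b). Gbp7 rose by 2.51 and 2.33 and Gbp3 by 2.14 and 1.98, against 2.25 and 0.19 for Gbp2b. Near Clec4a4, which fell in cDC2, Clec4a2 and Clec4b2 rose in cDC1 by 1.72 and 1.85, and Clec4n rose in cDC2 by 3.71, with no called difference. These families are alike in sequence, so their probe sets may share signal.

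In pDC, from a fit to all 23 arrays, no gene of 11666 was called with limma (0%), and 213 had an unadjusted p below the same threshold. The effect was 0.74 ± 0.37 for Capg, 1.50 ± 0.32 for Pilrb1 (adjusted p = 0.257), 0.13 ± 0.40 for Pilra and −0.39 ± 0.22 for Tgm2. Cd209d stood at 11.14 in WT pDC and 10.68 in cKO pDC. Summed markers of pDC, over 12 genes, ran from 1316 to 2302 in WT cDC1 and from 1531 to 2802 in cKO cDC1. In cDC2 they ran from 1326 to 2235 in WT and from 1865 to 3424 in cKO. Of 11 tested, 1 rose in cDC1 and 1 fell in cDC2, beside 0.874% and 0.48% over all genes. Erythroid and platelet markers, over 6 genes, summed to 237 to 658 in WT cDC2 and 263 to 900 in cKO cDC2. In cDC1 they were 192 to 349 in WT and 176 to 395 in cKO. The part of these cells was not tested.

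The firmness of the 33 calls differed. In 18 the call held without any 1 array: B4galt6, Ccl24, Cd209a, Cd22, Cd300lf, Cd33, Ctnnd2, Cybb, Dtx1, Fn1, Gbp2b, Gfra2, Lair1, Lpp, Myof, Pltp, Slc12a2 and Tgm2. The call was lost without WT cDC1 array 1 for Dapk1, without WT cDC1 array 1 or 2 or WT cDC2 array 2 for Npl (adjusted p up to 0.0855), and without any of 5 arrays for Clec4a4 (WT cDC1 1 or 2, cKO cDC1 3 or 4, WT cDC2 3; up to 0.0864) and Ceacam16 (WT cDC1 1 or 2, cKO cDC1 4, WT cDC2 2 or 3; up to 0.0869). It was lost without any of 8 arrays for Blnk (up to 0.0842), Gpr171 (up to 0.094) and Rin2 (up to 0.0869), and without any of 10 arrays for 1700006J14Rik (up to 0.0943). It was lost without any of 12 arrays for Arap2 (up to 0.151) and Strip2 (up to 0.126), of 13 for Fcgr2b (0.146), Il2ra (0.155), Klrb1b (0.116) and Tiam1 (0.135), and of 14 for Arhgap6 (0.149). No called value changed sign in any alternative.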

How the data were processed

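Splenic cDC1, cDC2 and pDC RNA was measured on 23 Mouse Gene 1.0 ST arrays, of which the 15 cDC arrays enter the tests. The deposited intensity values, 1 per probe set and array, were made by the authors with Affymetrix Expression Console and RMA per the submitters' processing notes; no version is named there. The values are linear, so log2 was taken. Per the labels, cDNA was made from picogram to nanogram amounts of total RNA with a low-input kit.

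Of 28853 probe sets, 21789 named 1 gene, 1621 several and 5443 none; the last 2 kinds were not used here. By Entrez identifier 21698 matched RefSeq (GRCm38.p6). A probe set was kept above the array median on at least 3 of 15 arrays, and the highest mean stood for its gene (676 genes had several), leaving 11666 of 19938 genes. This filter keeps genes through the group where they are high.

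limma 3.58.1 in R 4.3.3, with the data.table package, version 1.17.8, fitted 4 group means with lmFit and eBayes (11 residual degrees of freedom), two-sided, with Benjamini-Hochberg adjustment. Python 3.11.15 with pandas 2.3.3, numpy 2.4.6 and matplotlib 3.10.9 read sequences and drew figures. The script was tested on simulated data with independent noise on each array and no array sets, so the test does not cover data with such sets. The 15 largest called differences in each direction, the 10 largest shared effects in each direction, opposite genes, up to 4 called members of each list (or the 2 largest differences where none was called) and Bcl6 were named by rule. The members, lists and tests were chosen with earlier results of these data known; the bounds of sets A, B and C and 2 alternatives were chosen after the data were examined. The number of arrays limits the precision.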

Additional observations from a re-analysis of the deposited data

Results flagged for a closer look

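The genotype effects in cDC1 and cDC2 differed by limma's test of the difference itself for 33 genes. The differences of effects (log2, cDC1 minus cDC2) above 3 were Ccl24 6.04, Cybb 3.45 and Tgm2 3.16. Those between 2.2 and 3 were Cd300lf 2.92, Cd22 2.89, Pltp 2.59, Slc12a2 2.52, B4galt6 2.52, Clec4a4 2.52, 1700006J14Rik 2.33, Arap2 2.31, Lair1 2.28, Cd33 2.22 and Cd209a 2.20. The remaining differences above 0 were Ctnnd2 2.18, Lpp 2.15, Gbp2b 2.06, Ceacam16 2.0, Rin2 1.67, Dtx1 1.61, Npl 1.50, Arhgap6 1.39 and Klrb1b 1.30. The differences below 0 were Gfra2 −3.64, Fn1 −3.27, Myof −2.59, Dapk1 −2.31, Tiam1 −2.21, Gpr171 −1.87, Blnk −1.80, Fcgr2b −1.64, Il2ra −1.54 and Strip2 −1.52.

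In 11 of 200 groups of 4 or 5 arrays examined, 1 array lay farther from the others than Dixon's critical value for its group size; chance gives about 1 in 20 groups. In cKO cDC2, array 3 stood apart for Ak8 (6.01), Clec10a (7.03), Gata3 (6.04), Notch1 (6.67) and Tiam1 (7.38), array 2 for Cd22 (8.68), array 5 for Il7r (9.32) and array 1 for Jchain (5.38). In cKO cDC1, array 1 stood apart for Clec4a4 (2.75) and array 2 for Pilrb1 (9.52) and Xaf1 (5.08).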

How the results depend on the processing

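The difference of genotype effects was called for 33 genes, the genotype effect in cDC1 for 107 and the genotype effect in cDC2 for 206. A shared genotype effect was called for 40, a specific genotype effect for 28 and an opposite genotype effect (effects of opposite sign with a called difference) for 19. With the array set as a fixed term there were 239 differences (120 higher, 119 lower), 297 calls in cDC1, 887 in cDC2, 139 shared, 198 specific and 155 opposite. All 33, 107 and 206 calls stayed among these. The groups took up 49.5% of the variance and the groups with the set 86.3%; the bounds of the sets were chosen after seeing the data. With array weights the counts were 52 differences, 229 in cDC1, 67 shared and 30 opposite. Without both WT arrays 1 they were 14 differences, 119 in cDC2, 26 shared, 11 specific and 5 opposite. In sets A and B alone, chosen after seeing the data and with fewer arrays, they were 3 differences, 35 in cDC1, 59 in cDC2, 15 shared, 3 specific and 0 opposite.

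Replicate numbers paired the samples only in part. Of 19 same-numbered pairs, within and across genotypes, 13 had deviations correlated above 0.1, the lowest at −0.29. Same-numbered WT cDC1 and WT cDC2 arrays lay in the same sets and had r of 0.64, 0.48 and 0.63. Those of cKO had r of 0.60, −0.11, −0.29 and 0.52, and numbers 2 and 3 lay in different sets. Of 15 arrays, 6 correlated best with their own number. The sets did pair them: same-set pairs had r from 0.37 to 0.69, the highest r across sets was 0.0015, and all 15 arrays had their best partner in their own set. With the replicate number as a block the counts were 58 differences and 51 specific, and with a random replicate block (consensus correlation 0.39) 100 differences, 81 specific and 59 opposite. With a block within genotype 42 differences were called, 26 of them among the 33. All of these blocks put arrays 2 and 3 of cKO cDC1 and cKO cDC2 together although their sets differ.

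Leaving out 1 array gave 19 (WT cDC1 array 1) to 38 (cKO cDC2 array 3) differences, 67 (WT cDC1 array 2) to 115 calls in cDC1, 128 (WT cDC2 array 1) to 240 in cDC2, 32 to 48 shared, 16 to 32 specific and 10 to 23 opposite. Differences numbered 21 without WT cDC1 array 2 and 22 without cKO cDC1 array 4 or cKO cDC2 array 5. Quantile normalization gave 49 differences, centred array medians 41, no filter 28, a stricter filter 28, all 23 arrays 34 and a variance trend 33. The cause of these shifts was not tested. Of the 33 differences, Ccl24 and Gfra2 were called in every alternative run, and none changed sign. A level under the array medians limits the sizes for Ccl24, Gfra2, Fn1, Il2ra, Cd33, Clec4a4, Blnk, 1700006J14Rik, Gbp2b, Ceacam16, Npl, Arhgap6 and 19 of the 40 shared genes in cDC1.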
